A study of Homo sapiens with 6 samples.

Results

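Solute carriers are membrane proteins that move nutrients, ions, vitamins, metals and metabolites across the plasma membrane and the membranes of organelles. A carrier may work as a uniporter, as an exchanger or as a cotransporter driven by the sodium or proton gradient, and some work only in a complex with a partner protein. The family is numbered by sequence and substrate (SLC1, SLC2 and so on), and the organic anion transporters carry the prefix SLCO. In the table analysed here, 160 gene names begin with SLC and a number or with SLCO, out of 10515 rows. The 28 mitochondrial carriers of the SLC25 family and the glycolysis genes SLC2A1 and SLC16A3 were left out. The remaining 130 genes, each at 1 assembled locus, are described below by the substrate class that textbook knowledge gives them.

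RNA was sequenced from 3 human bladder cancer cell lines with FGFR3 fusions, to see how they respond to quisinostat, a pan-histone deacetylase (HDAC) inhibitor. RT4 and RT112 cells carry an FGFR3-TACC3 fusion and SW780 cells an FGFR3-BAIBP2L1 fusion. Cells were kept for 2 days with DMSO or with quisinostat, at 50 nM in RT4, 10 nM in RT112 and 25 nM in SW780 cells. There was 1 library for each line and treatment, 6 in all, so a difference within a line has no replicate check. RT4 cells were grown in McCoy's 5A medium and the others in DMEM, which for RT112 cells also held added glutamine and non-essential amino acids, so line, dose and medium cannot be told apart.

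Values are FPKM, in which fragments are scaled by transcript length and by the number mapped in the library, so levels can be compared between genes per length. The response of a gene is the log2 of its treated FPKM divided by the untreated FPKM of that line. A gene past 0.3 is counted as higher and one past -0.3 as lower. Ratios were taken for the 117 members above 0 in all 6 libraries, out of 9112 such loci. Throughout, 3 ratios given together stand for RT4, RT112 and SW780 cells in that order. The FPKM of the members sum to between 0.494% and 0.628% of the table's total in each library. All 19 urothelial and epithelial markers looked for were in the table, with sums of 1239 to 1938 FPKM in DMSO and 1086 to 1813 in quisinostat. Among 15 fibroblast, leukocyte and endothelial markers only COL1A1, COL3A1 and LUM were in it, and the highest value was LUM in RT112 cells (from 135 to 133 FPKM). Transcript GC content moved with the ratios over all loci, with Spearman's correlations of -0.49, 0.44 and -0.22. Among the members these were -0.52, 0.25 and -0.36, across genes, which share libraries and are not independent. Ratios with this trend removed, called GC-corrected below, are given for members beside the deposited ones where a described ratio crosses the limit, or where one past it moves by over 1.5 times. For genes outside the members only the deposited ratios are given. The correction ended 17, 14 and 11 of the members' 93, 74 and 83 calls, added 14, 11 and 8, and turned 4 RT4 calls to the other side. The part of GC content in the results was not tested.

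Members were more often higher than lower with quisinostat. In RT4 cells 61 of 117 were higher and 32 lower, against 40.3% and 33.5% of all loci. Respective counts in RT112 cells were 50 and 24 (36% and 25.2% of all loci), and in SW780 cells 50 and 33 (32.8% and 28.2%). Median ratios of the members were 0.36, 0.20 and 0.09, beside 0.08, 0.06 and 0.04 over all loci. In all 3 lines together, 21 members were higher, where 11.4% of loci were, and 8 were lower, where 4.99% were. At a limit of 1, a change of at least 2-fold, 6 were higher in all lines (3% of all loci) and 2, SLCO4A1 and SLC44A4, were lower (0.285%). Untreated levels of SLC44A4 were near 0 in RT112 and SW780 cells. By line at that limit, 29 were higher and 14 lower in RT4 (18% and 14.1% of loci), 18 and 8 in RT112 (13.8% and 3.6%), and 16 and 11 in SW780 cells (10.5% and 7.35%).

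**Figure D1:**
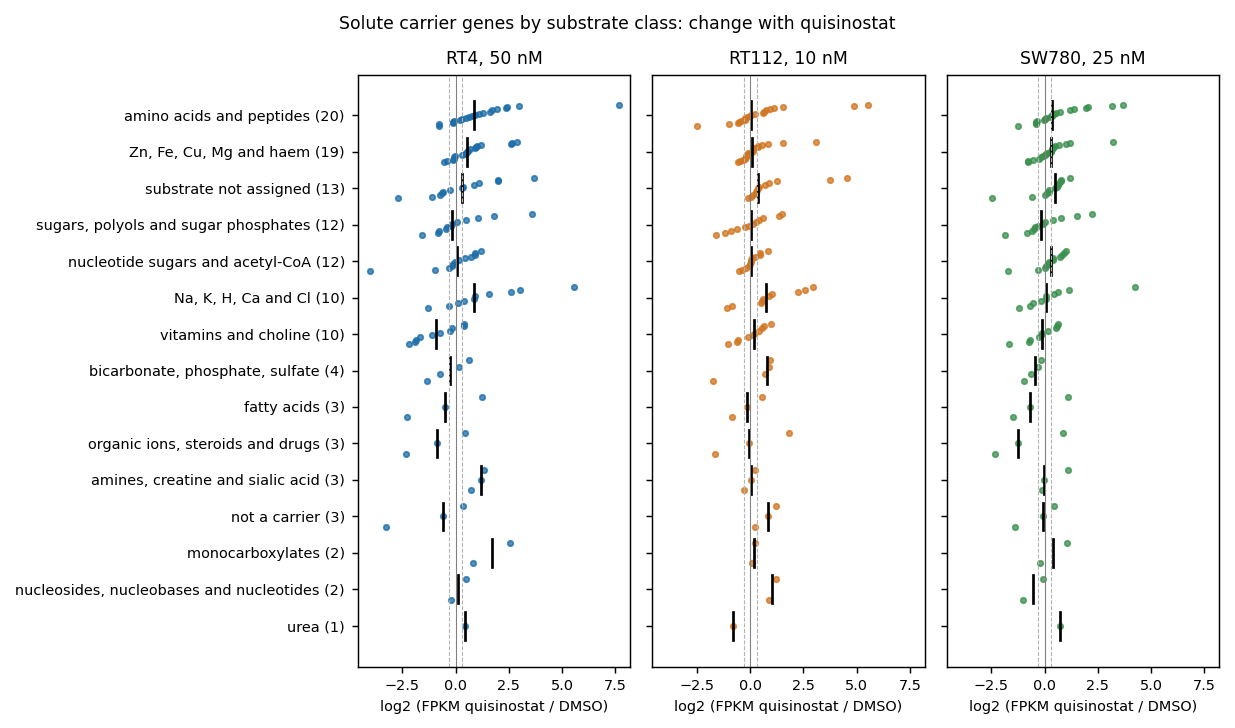
Log2 ratio of FPKM, quisinostat over DMSO, of each member (points) by substrate class, with the class median (bar) and the number of members with a ratio in brackets; dashed lines mark the limit of 0.3 and each panel is 1 cell line. Amino acid and metal carriers lie mostly to the right in RT4 cells, while vitamin and choline carriers have a median of -0.93 there. The ratios shown are not GC-corrected. With the GC trend removed the RT4 medians were 0.98 for amino acid, 0.18 for metal and -0.73 for vitamin and choline carriers.

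When the lines were used as replicates in limma, on log2(FPKM + 1) with cell line as a block, none of 123 members and none of 9430 loci had an adjusted p-value under 0.05. At an unadjusted p under 0.05 there were 16 members higher and 5 lower, against 9.68% and 4.16% of all loci. The smallest adjusted p among the members was 0.226, for SLC31A2. Hence the values below are descriptions of these libraries, and "higher" and "lower" refer to the limit of 0.3. Adding 1 before taking logs makes the fold change of a low gene look smaller than it was.

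Upstream sequences of members at both ends of the response are shown here so that their start regions can be compared. They are the 250 bases before the RefSeq start, 5′ to 3′ on the strand of the gene, in build GRCh38.p14. SLC20A1 was lower in all 3 lines, and SLC17A7, SLC2A12 and SLC46A3 were higher in all 3. The motifs searched on both strands were the GC box GGGCGG, the E-box CACGTG, the TATA box TATAAA and the AP-1 site TGANTCA, and matches are in capitals.
SLC20A1 (chr2:112645689-112645938, plus strand): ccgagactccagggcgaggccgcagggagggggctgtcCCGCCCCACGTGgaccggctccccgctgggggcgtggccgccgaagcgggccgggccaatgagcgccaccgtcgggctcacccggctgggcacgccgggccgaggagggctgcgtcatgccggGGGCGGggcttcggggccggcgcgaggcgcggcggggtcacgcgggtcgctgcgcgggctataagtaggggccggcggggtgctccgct
SLC17A7 (chr19:49441528-49441777, minus strand): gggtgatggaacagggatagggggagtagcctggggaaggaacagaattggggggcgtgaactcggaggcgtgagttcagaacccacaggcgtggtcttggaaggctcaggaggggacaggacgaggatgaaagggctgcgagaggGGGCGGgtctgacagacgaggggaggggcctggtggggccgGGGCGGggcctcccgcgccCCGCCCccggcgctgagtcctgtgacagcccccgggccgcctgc
SLC2A12 (chr6:134052625-134052874, minus strand): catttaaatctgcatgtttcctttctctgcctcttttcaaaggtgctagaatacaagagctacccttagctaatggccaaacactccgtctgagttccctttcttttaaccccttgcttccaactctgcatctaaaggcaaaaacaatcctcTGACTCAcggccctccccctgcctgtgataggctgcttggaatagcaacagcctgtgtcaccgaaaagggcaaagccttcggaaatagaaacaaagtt
SLC46A3 (chr13:28718971-28719220, minus strand): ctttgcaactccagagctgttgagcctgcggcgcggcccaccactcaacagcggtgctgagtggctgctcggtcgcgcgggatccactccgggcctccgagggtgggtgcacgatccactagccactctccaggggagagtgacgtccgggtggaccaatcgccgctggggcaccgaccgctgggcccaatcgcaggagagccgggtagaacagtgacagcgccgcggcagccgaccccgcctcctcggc

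The SLC20A1 sequence has a GC content of 80% and holds 2 GC boxes and 1 E-box, which directly follows the first GC box in the run of capitals. That of SLC17A7 is 70% GC with 3 GC boxes, that of SLC2A12 is 46% GC with an AP-1 site, and that of SLC46A3 is 69.6% GC with no match. Among 35114 RefSeq promoters of this length, 42.6% hold a GC box, 6.35% an E-box, 10.7% a TATA box and 6.57% an AP-1 site. RefSeq promoters matched 109 of the 130 members, of which 68 have a single start. GC boxes were found in 52 of these 68, in 4 of 4 such members lower in all lines and in 5 of 8 higher in all lines, counting members with a mean FPKM of at least 1. The sets are unlike, since the 35114 promoters include genes with several starts and are not limited to genes of the table analysed. Median GC content was 58% over the 35114, 69% over the 68, 78.4% over the 4 and 67.6% over the 8. No upstream sequence was matched for SLCO4A1 and SLC31A2.

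SLCO4A1 encodes an organic anion transporting polypeptide that takes up thyroid hormone, prostaglandins and steroid conjugates. It lies on chromosome 20 of GRCh38 from 62642445 to 62685785 on the plus strand (GENCODE 29). It went from 3.38 to 0.675 FPKM in RT4, from 6.37 to 2.04 in RT112 and from 1.52 to 0.298 in SW780 cells. Each quisinostat library was below its own DMSO library, while the treated RT112 level stood above that of untreated SW780 cells, so the treatments overlap across lines. The log2 ratios were -2.32, -1.64 and -2.35, and -1.36, -2.36 and -2.07 with the GC trend removed. Ordered by the weakest of the 3 ratios, SLCO4A1 was number 5 from the bottom of 8898 loci averaging 1 FPKM or more, and first among the members. SLCO4A1 was chosen for naming with its large shared decrease in these data already known, so this rank restates the choice. In limma its log2 fold change was -1.21 (standard error 0.29, adjusted p = 0.274). The members whose log2(FPKM + 1) followed SLCO4A1 most closely over the 6 libraries were SLC19A1 (Pearson's r = 0.94), SLC45A3 (0.94), SLC35C2 (0.86), SLC5A3 (0.84) and SLC2A6 (0.84), values that mix differences between lines and between treatments.

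The other members of its class had their own patterns. SLCO3A1, a prostaglandin carrier, had ratios of 0.46, 1.81 and 0.87, and all its quisinostat libraries were above all its DMSO libraries. SLCO4C1, known from the kidney, was at 0.0701 FPKM in RT4 DMSO and 4.72 in RT4 quisinostat, at 0.0659 and 2.75 in SW780, and listed at 0 and at 0.00721 in RT112 cells. SLC22A5, the plasma membrane carnitine carrier, went from 4.34 to 2.38 FPKM in RT4, from 4.23 to 4.01 in RT112 and from 6.28 to 2.61 in SW780 cells. Its ratio was near 0 in RT112 cells and past -0.3 in the others (-0.87, -0.078 and -1.27), and its highest quisinostat library was below its lowest DMSO library.

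Phosphate enters cells through SLC20A1 and SLC20A2, sodium-dependent carriers. SLC20A1 had the highest mean of all members in DMSO and was lower in each line, from 75.6 to 45.0 FPKM in RT4, from 127 to 37.7 in RT112 and from 139 to 71.6 in SW780 cells. No quisinostat library reached the lowest DMSO library. The ratios were -0.75, -1.75 and -0.96, and -0.97, -1.69 and -1.05 with the GC trend removed, and limma gave -1.14 (standard error 0.24, adjusted p = 0.253). SLC20A2 had lower levels and ratios of 0.61, 0.91 and -0.32, higher in RT4 and RT112 and lower in SW780 cells. In the class of bicarbonate, sulfate, phosphate and other inorganic anions, with 4 of 5 members above 0 throughout, SLC20A1 alone was past the limit on the same side in all lines. SLC4A2, a chloride-bicarbonate exchanger, had ratios of -1.35, 0.88 and -0.18 (-0.43, 0.20 and 0.088 GC-corrected, at 61.3% GC), and the sulfate carrier SLC26A2 of 0.18, 0.68 and -0.64.

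**Figure D2:**
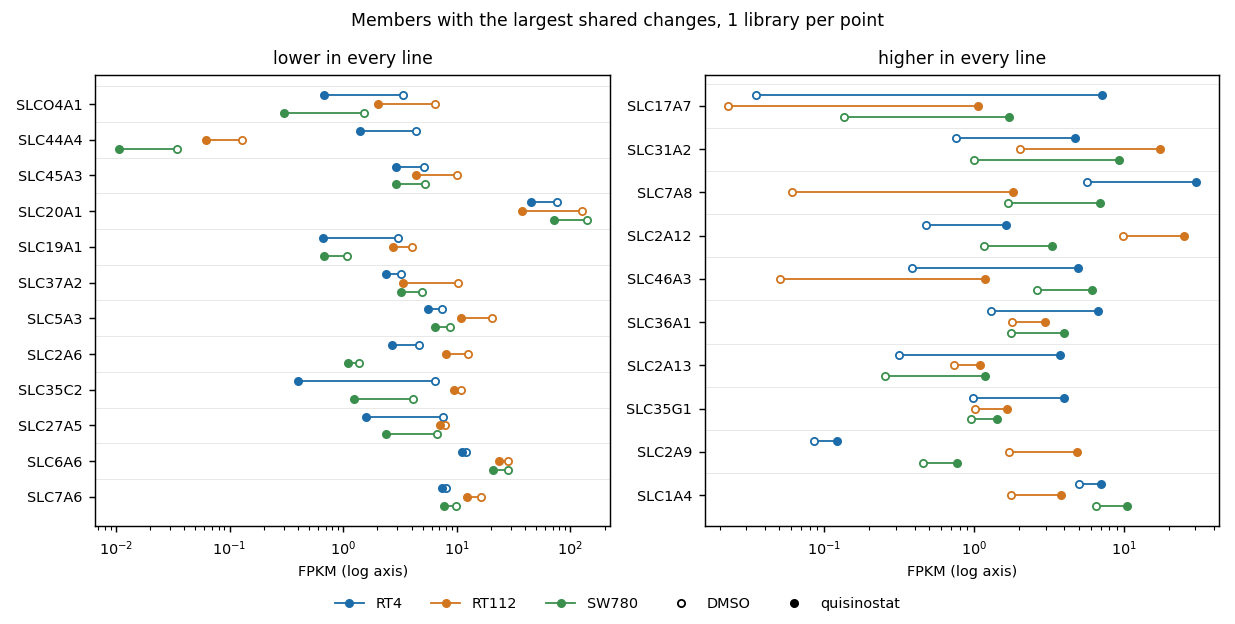
FPKM (log axis) of the 12 members with the largest shared decrease and 10 of the 12 with the largest shared increase by the weakest of 3 ratios, with DMSO (open) joined to quisinostat (filled) in each cell line. SLC20A1 lies between 37.7 and 71.6 FPKM in quisinostat and between 75.6 and 139 in DMSO, and SLC31A2 between 4.70 and 17.3 in quisinostat and between 0.762 and 2.02 in DMSO.

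Vitamin and choline carriers were the class with the lowest median among those of 10 members or more in RT4 cells, with 6 of 10 lower and 2 higher (median -0.93). In RT112 cells 3 were lower and 4 higher (0.18), and in SW780 cells 3 were lower and 3 higher (-0.15). Shares of all loci in RT4, RT112 and SW780 cells were 33.5%, 25.2% and 28.2% lower and 40.3%, 36% and 32.8% higher. GC-corrected, 7, 3 and 4 of the 10 were lower and 1, 1 and 3 higher. The folate carriers stood on opposite sides. SLC19A1, the reduced folate carrier, went from 3.03 to 0.661 FPKM in RT4, from 4.06 to 2.73 in RT112 and from 1.08 to 0.673 in SW780 cells, with ratios of -2.20, -0.57 and -0.69 (-0.97, -1.50 and -0.32 GC-corrected) and a limma fold change of -0.68 (standard error 0.34, adjusted p = 0.415). SLC46A1, the proton-coupled folate carrier, had ratios of 0.39, 0.41 and 0.56, so it was higher in all lines, but GC-corrected they were 0.72, 0.16 and 0.63, within the limit in RT112 cells. SLC44A4, a choline-like family member known to take up thiamine pyrophosphate, was lower in all lines (-1.65, -1.06 and -1.69). Only RT4 cells had much of it, from 4.41 to 1.40 FPKM, while the untreated levels in RT112 and SW780 cells were 0.129 and 0.0342. After 1 was added to each value its ratios were -1.17, -0.088 and -0.033, past the limit only in RT4 cells.

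For other vitamins the lines parted. SLC5A6, which carries biotin and pantothenate, went from 19.2 to 5.10 FPKM in RT4, from 8.77 to 10.2 in RT112 and from 14.3 to 8.72 in SW780 cells, and SLC52A2, a riboflavin carrier, from 10.9 to 2.98 FPKM in RT4, from 7.12 to 13.8 in RT112 and from 4.63 to 4.09 in SW780 cells. Both were lowest in treated RT4 cells. The ratios of SLC52A2, whose transcript is 65.8% GC, became -0.50, -0.08 and 0.23 with the trend removed, from -1.86, 0.96 and -0.18. SLC44A2, a choline-like carrier and the most abundant of the class, went from 60.3 to 49.5 FPKM in RT4, from 70.7 to 104 in RT112 and from 37.4 to 34.3 in SW780 cells. Its ratio of 0.56 in RT112 cells, the only one past the limit, was 0.26 after GC correction. SLC44A1 had ratios of 0.40, -0.12 and -0.25, and -0.085, 0.05 and -0.40 GC-corrected, so its call in RT4 cells ended and 1 in SW780 cells was added.

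Amino acid and peptide carriers formed the largest class, with 24 members and 20 above 0 in all libraries. In RT4 cells 13 of the 20 were higher and 2 lower, in RT112 cells 8 and 5, and in SW780 cells 11 and 5, with medians of 0.84, 0.02 and 0.34. Respective shares of all loci were 40.3%, 36% and 32.8% higher and 33.5%, 25.2% and 28.2% lower. GC-corrected, 13, 7 and 10 were higher and 4, 7 and 4 lower, with medians of 0.98, -0.06 and 0.31. The corrected shares of loci were 35.6%, 28.1% and 30.5% higher and 33.4%, 24.7% and 28.6% lower. SLC7A8, SLC17A7, SLC36A1 and SLC1A4 were higher in all lines and no member was lower in all, beside 11.4% and 4.99% of all loci. SLC7A8, the light chain of a neutral amino acid exchanger, went from 5.68 to 30.3 FPKM in RT4, from 0.0612 to 1.81 in RT112 and from 1.68 to 6.96 in SW780 cells. It was highest in treated RT4 cells and near 0 in untreated RT112 cells, and the treatments overlapped between lines. Its ratios were 2.42, 4.89 and 2.05 and its limma fold change 1.73 (standard error 0.27, adjusted p = 0.226). SLC17A7, which loads glutamate into synaptic vesicles of neurons, went from 0.0351 to 7.12 FPKM in RT4, from 0.0227 to 1.07 in RT112 and from 0.135 to 1.70 in SW780 cells. Its DMSO levels were all under 0.14 FPKM, and the ratios of 7.67, 5.55 and 3.66 became 2.97, 1.02 and 1.25 after 1 was added to each value.

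SLC36A1, a proton-driven carrier of small amino acids at the lysosome, went from 1.30 to 6.77 FPKM in RT4, from 1.79 to 2.97 in RT112 and from 1.78 to 3.98 in SW780 cells. The lowest quisinostat library was above the highest DMSO library. SLC1A4, a neutral amino acid exchanger, had ratios of 0.48, 1.11 and 0.70. SLC38A9, the lysosomal arginine sensor of mTORC1, was higher in RT4 and RT112 cells and lower in SW780 cells (1.63, 1.52 and -0.40). The peptide carrier SLC15A1 went from 0.177 to 1.39 FPKM in RT4, from 3.93 to 2.64 in RT112 and from 0.237 to 0.896 in SW780 cells, which is higher in RT4 and SW780 cells and lower in RT112 cells, the line with the most of it before treatment.

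Carriers of glutamine and large neutral amino acids were among the most abundant members. SLC1A5, a glutamine exchanger, went from 93.1 to 54.1 FPKM in RT4, from 83.3 to 96.6 in RT112 and from 87.7 to 66.0 in SW780 cells, and SLC38A2, a sodium-coupled carrier of small neutral amino acids, from 49.0 to 57.0 FPKM in RT4, from 71.7 to 71.2 in RT112 and from 95.6 to 127 in SW780 cells. SLC1A5 was lower in RT4 and SW780 cells (-0.79, 0.21 and -0.41), but neither call held after GC correction (0.12, -0.46 and -0.15), which put RT112 cells past the limit downward. SLC38A2 was past the limit only in SW780 cells (0.22, -0.011 and 0.41), and that ratio too came within it (-0.31, 0.16 and 0.25 GC-corrected), while RT4 cells went past it downward. SLC38A1 had ratios of 0.63, -0.13 and 0.34, and 0.21, 0.033 and 0.22 GC-corrected, so its calls in RT4 and SW780 cells ended. SLC3A2, the heavy chain that brings several SLC7 light chains to the membrane, went from 11.5 to 27.8 FPKM in RT4, from 20.2 to 21.1 in RT112 and from 41.0 to 51.8 in SW780 cells, with a limma fold change of 0.53 (standard error 0.27, adjusted p = 0.419). Its RT112 ratio was 0.059, and -0.31 GC-corrected. Its light chain SLC7A5 had ratios of 0.29, 0.63 and 0.07, and 1.18, -0.028 and 0.33 GC-corrected, so that the line past the limit changed from RT112 to RT4 and SW780. SLC7A11, the light chain that imports cystine, went from 2.84 to 10.9 FPKM in RT4, from 2.25 to 1.55 in RT112 and from 16.7 to 23.8 in SW780 cells. Treated RT4 cells stood well above untreated ones, and SW780 cells had the most under both conditions. Treated RT112 cells were lower (-0.54, and -0.36 GC-corrected). The SW780 ratio of 0.51 was 0.29 after GC correction. The taurine carrier SLC6A6 and SLC7A6, an exchanger of cationic and neutral amino acids, had all ratios below 0 but not all past the limit (-0.12, -0.26 and -0.42 for SLC6A6 and -0.12, -0.41 and -0.34 for SLC7A6, the latter -0.34, -0.35 and -0.43 and past the limit in all lines when GC-corrected).

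Glutamate carriers differed between lines. SLC1A1 went from 2.79 to 5.96 FPKM in RT4, from 8.60 to 4.29 in RT112 and from 0.507 to 4.46 in SW780 cells, and SLC1A3 from 2.81 to 9.14 FPKM in RT4, from 11.0 to 9.37 in RT112 and from 9.76 to 4.07 in SW780 cells. Thus SLC1A1 was higher in RT4 and SW780 cells and lower in RT112 cells, and SLC1A3 was higher in RT4 and lower in SW780 cells. SLC38A4, a neutral amino acid carrier, was at 31.5 FPKM in RT4 DMSO and 29.5 in RT4 quisinostat, while no library of RT112 and SW780 cells exceeded 0.753, so its ratio of -2.50 in RT112 cells sets 2 values near 0 against each other. The RT4 ratio was -0.094, and -0.63 GC-corrected.

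Metal and haem carriers numbered 20, with 19 above 0 in all libraries. In RT4 cells 13 of the 19 were higher and 2 lower (median 0.52), in RT112 cells 6 and 3 (0.09) and in SW780 cells 9 and 3 (0.28). Respective shares of all loci were 40.3%, 36% and 32.8% higher and 33.5%, 25.2% and 28.2% lower. GC-corrected, 9, 6 and 7 were higher and 2, 3 and 4 lower, with medians of 0.18, 0.04 and 0.21. The corrected shares of loci were 35.6%, 28.1% and 30.5% higher and 33.4%, 24.7% and 28.6% lower. SLC31A2, a copper carrier of endosomes and lysosomes, went from 0.762 to 4.70 FPKM in RT4, from 2.02 to 17.3 in RT112 and from 1.0036 to 9.24 in SW780 cells. All treated libraries were above all untreated ones, as for 14 of the 130 members and 6.48% of all loci. Its ratios of 2.62, 3.10 and 3.20 were 2.44, 3.14 and 3.13 with the GC trend removed, and limma gave 2.22 (standard error 0.28, adjusted p = 0.226), number 13 of 9430 loci by p. SLC31A2 lies on chromosome 9 from 113150942 to 113164137, plus strand. SLC31A1, the copper importer of the plasma membrane, went from 13.9 to 18.9 FPKM in RT4, from 17.4 to 11.7 in RT112 and from 16.7 to 16.8 in SW780 cells, and its ratio was past 0.3 in RT4 cells, past -0.3 in RT112 cells and 0.014 in SW780 cells. After GC correction the RT4 ratio was 0.11 and only the RT112 call was left.

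Zinc carriers of the SLC39 family bring zinc into the cytosol, and those of SLC30 move it out. Of 9 SLC39 members, 5 were higher and 1 lower in RT4 cells (40.3% and 33.5% of all loci). Counts were 3 and 0 in RT112 cells (36% and 25.2%), and 6 and 1 in SW780 cells (32.8% and 28.2%). SLC39A14, which also takes up iron and manganese, went from 9.07 to 18.1 FPKM in RT4, from 4.34 to 5.57 in RT112 and from 12.6 to 25.1 in SW780 cells and was past the limit in each. SLC39A8, its near relative, went from 1.33 to 8.44 FPKM in RT4, from 3.55 to 3.06 in RT112 and from 4.57 to 7.34 in SW780 cells, with the largest difference in RT4 cells. SLC30A1, the zinc exporter of the plasma membrane, was higher in all lines (0.67, 0.38 and 1.18), but with the GC trend removed its ratio in RT4 cells was 0.14. The abundant SLC39A7, which releases zinc from the endoplasmic reticulum, had ratios of 0.31, -0.081 and 0.28 (0.60, -0.30 and 0.34 GC-corrected), and SLC39A6 of 0.94, 0.09 and 0.41 (0.52, 0.25 and 0.29).

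SLC40A1, or ferroportin, the known exporter of iron from cells, went from 5.36 to 39.8 FPKM in RT4, from 0.692 to 0.493 in RT112 and from 25.5 to 17.4 in SW780 cells. Treated RT4 cells had the highest level of the 6 libraries, whereas RT112 and SW780 cells were past -0.3. The iron importer SLC11A2 had ratios of 0.52, -0.22 and -0.29, and 0.15, -0.068 and -0.40 GC-corrected. SLC48A1, a haem carrier of endosomes, was higher in RT4 and RT112 cells but not in SW780 cells (1.21, 1.52 and -0.17).

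Sugar, polyol and sugar phosphate carriers split by member. Of 12 with a ratio, 4 were lower and 3 higher in all lines, beside 4.99% and 11.4% of all loci. By line, 5, 4 and 6 were lower and 4, 4 and 4 higher, and GC-corrected 3, 5 and 5 were lower and 7, 3 and 4 higher. Shares of all loci by line, uncorrected, were 33.5%, 25.2% and 28.2% lower and 40.3%, 36% and 32.8% higher. SLC2A12, a facilitative glucose carrier, went from 0.476 to 1.64 FPKM in RT4, from 9.85 to 25.2 in RT112 and from 1.16 to 3.33 in SW780 cells. RT112 cells had more of it before treatment than either other line reached afterwards. Its ratios were 1.79, 1.36 and 1.51, and limma gave 1.04 (standard error 0.24, adjusted p = 0.268). SLC2A13, which carries myo-inositol with protons, went from 0.314 to 3.77 FPKM in RT4, from 0.733 to 1.10 in RT112 and from 0.254 to 1.18 in SW780 cells, and SLC2A9, a urate carrier, from 0.0854 to 0.121 FPKM in RT4, from 1.72 to 4.84 in RT112 and from 0.458 to 0.770 in SW780 cells. The SLC2A9 ratios of 0.51, 1.49 and 0.75 became 0.047, 1.10 and 0.28 after 1 was added to each value, so only that in RT112 cells was still past the limit. SLC5A3, which brings in myo-inositol with sodium, was lower in all lines instead (-0.41, -0.89 and -0.44, and -0.76, -0.75 and -0.54 GC-corrected), but its locus is shared with MRPS6 and the genes are not told apart. SLC37A2, an exchanger of glucose-6-phosphate and phosphate, went from 3.25 to 2.37 FPKM in RT4, from 10.3 to 3.36 in RT112 and from 4.92 to 3.25 in SW780 cells. With the GC trend removed, the RT4 ratio of SLC37A2 went from -0.45 to -0.0085, and those of SLC2A6 from -0.77, -0.62 and -0.31 to 0.39, -1.49 and 0.038.

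SLC45A3 had ratios of -0.81, -1.19 and -0.84 and all its treated libraries were below all untreated ones, as for 3 of 130 members (with SLC20A1 and SLC22A5) and 4.06% of loci, but it shares its locus with ELK4. SLC2A8, a glucose carrier of internal membranes, went from 8.25 to 2.79 FPKM in RT4, from 1.53 to 1.70 in RT112 and from 2.51 to 0.680 in SW780 cells. It was lower in RT4 and SW780 cells and within the limit in RT112 cells (-1.56, 0.15 and -1.88), but lower in all 3 lines when GC-corrected (-0.51, -0.63 and -1.57). SLC37A4, which brings glucose-6-phosphate into the endoplasmic reticulum, had ratios of -0.16, 0.25 and -0.50, and 0.50, -0.24 and -0.32 GC-corrected. The lactate and pyruvate carrier SLC16A1 went from 1.59 to 9.41 FPKM in RT4, from 3.41 to 3.65 in RT112 and from 11.7 to 23.9 in SW780 cells. Ratios of its known partner proteins differed in sign in RT4 and SW780 cells but not in RT112 cells. EMB, an immunoglobulin family partner of monocarboxylate carriers, was higher in all lines (1.64, 0.94 and 0.40), whereas BSG, the usual partner of SLC16A1, had ratios of -1.06, 1.09 and -0.45. These partner ratios are not GC-corrected, and the part of GC content in them was not tested.

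Ion exchangers and cotransporters of sodium, potassium, protons, calcium and chloride had 10 of 11 members above 0 throughout. In RT4 cells 7 were higher and 1 lower (median 0.88), in RT112 cells 8 and 2 (0.75), and in SW780 cells 4 and 3 (0.05). Respective shares of all loci were 40.3%, 36% and 32.8% higher and 33.5%, 25.2% and 28.2% lower. SLC12A4, a potassium-chloride cotransporter that lowers chloride and cell volume, was higher in all lines and went from 1.91 to 3.48 FPKM in RT4, from 0.782 to 6.0048 in RT112 and from 2.84 to 3.90 in SW780 cells. Its treated libraries lay above the untreated ones without overlap, and its ratios were 0.86, 2.94 and 0.45, or 1.73, 2.30 and 0.70 GC-corrected. SLC12A7, a related cotransporter of 61.0% GC, had ratios of -1.28, 1.01 and -0.71, and -0.41, 0.36 and -0.46 with the GC trend removed. SLC12A2, which brings chloride in with sodium and potassium, went from 8.26 to 10.7 FPKM in RT4, from 13.2 to 6.30 in RT112 and from 13.5 to 9.39 in SW780 cells, which is higher in RT4 cells and lower in the others, though the RT4 ratio of 0.38 was -0.052 GC-corrected.

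Sodium-proton exchangers of the SLC9 family differed among themselves. SLC9A9, an exchanger of endosomes named here after its values were seen because its mean FPKM of 0.938 is under the level set for naming, went from 0.0730 to 3.49 FPKM in RT4, from 0.0251 to 0.147 in RT112 and from 0.0961 to 1.79 in SW780 cells, with no overlap between treatments. SLC9A4 went from 1.30 to 10.4 FPKM in RT4, from 0.139 to 0.653 in RT112 and from 1.73 to 0.754 in SW780 cells, higher in RT4 and RT112 cells and lower in SW780 cells. The sodium gradient that drives many carriers is set by the sodium pump. Of 7 pump subunits with ratios, 6, 3 and 2 were higher in the respective lines and 0, 1 and 2 lower. ATP1A4, counted among them with ratios of 0.41, 0.82 and -1.24, shares its locus with CASQ1. Over all loci, 40.3%, 36% and 32.8% were higher and 33.5%, 25.2% and 28.2% lower.

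Carriers of nucleotide sugars and acetyl-CoA bring sugar donors into the Golgi and endoplasmic reticulum for glycosylation. All 12 had ratios, with medians of 0.06, 0.03 and 0.28. They were higher in 5, 3 and 6 cases and lower in 3, 2 and 2, and GC-corrected higher in 7, 2 and 6 and lower in 4, 3 and 2. Uncorrected shares of all loci were 40.3%, 36% and 32.8% higher and 33.5%, 25.2% and 28.2% lower. SLC35A1, which carries CMP-sialic acid, was higher in all lines, from 12.5 to 28.9 FPKM in RT4, from 10.6 to 18.8 in RT112 and from 12.4 to 16.0 in SW780 cells, with treated libraries above all untreated ones, though its ratios of 1.22, 0.83 and 0.37 became 0.70, 1.002 and 0.21 after GC correction, within the limit in SW780 cells. SLC33A1, the acetyl-CoA carrier of the endoplasmic reticulum, was also higher in all lines (0.91, 0.45 and 0.41), and 0.43, 0.62 and 0.26 GC-corrected, within the limit in SW780 cells. SLC35C2, linked to fucose transfer, went from 6.38 to 0.399 FPKM in RT4, from 10.8 to 9.41 in RT112 and from 4.14 to 1.25 in SW780 cells. Its ratio of -3.998 in RT4 cells was the lowest there among the members above 0 in all libraries. GC-corrected, SLC35C2 was lower in all 3 lines (-3.75, -0.38 and -1.68). SLC35B2, which carries the sulfate donor PAPS and was the most abundant of the class, had ratios of -0.30, 0.047 and 0.19, and 0.45, -0.51 and 0.40 GC-corrected, which puts RT4 cells on the other side and both other lines past the limit.

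Smaller classes followed single members. The nucleoside carrier SLC29A1 went from 9.84 to 13.8 FPKM in RT4, from 17.8 to 40.9 in RT112 and from 9.33 to 8.72 in SW780 cells, with ratios of 0.49, 1.20 and -0.10, and 0.94, 0.86 and 0.01 GC-corrected. The urea carrier SLC14A1, known in urothelium, went from 16.5 to 22.4 FPKM in RT4, from 7.39 to 4.21 in RT112 and from 3.57 to 5.84 in SW780 cells, higher in RT4 and SW780 cells and lower in RT112 cells, though the RT4 ratio of 0.44 was 0.078 GC-corrected. The creatine carrier SLC6A8 had ratios of 1.17, -0.30 and 1.09, and 2.18, -1.05 and 1.38 GC-corrected. Of the fatty acid carriers and acyl-CoA ligases, SLC27A5 was lower in RT4 and SW780 cells (-2.28, -0.14 and -1.49), and in all 3 lines when GC-corrected (-1.21, -0.94 and -1.18), while SLC27A2 was higher in RT4 and SW780 cells and lower in RT112 cells (1.22, -0.85 and 1.10). Among members with no assigned substrate, SLC46A3, a lysosomal carrier, went from 0.382 to 4.95 FPKM in RT4, from 0.0508 to 1.18 in RT112 and from 2.64 to 6.09 in SW780 cells, with ratios of 3.69, 4.53 and 1.20. SLC35G1 was higher in all lines too, and SLC35F6 shares its locus with CENPA. SLC16A5, of the monocarboxylate carrier family, went from 7.39 to 1.1504 FPKM in RT4, from 1.92 to 3.59 in RT112 and from 6.92 to 1.24 in SW780 cells, and its RT112 ratio of 0.91 was 0.34 GC-corrected.

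**Figure D3:**
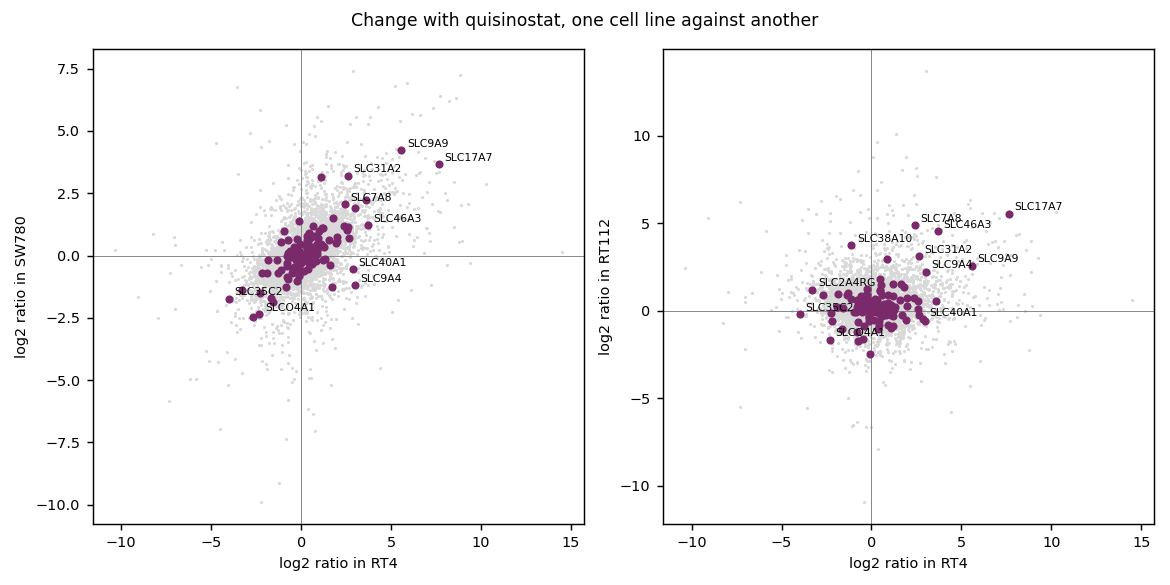
Log2 ratio of FPKM in SW780 (left) and RT112 cells (right) against that in RT4 cells for the 117 members (purple) over all 9112 loci (grey). In the left panel Spearman's correlation of the members is 0.61 and in the right panel 0.15.

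Across the 117 members the ratios of RT4 and SW780 cells had a Spearman's correlation of 0.61, beside 0.55 over all loci. It was 0.15 between RT4 and RT112 cells (0.04 over all loci) and 0.18 between RT112 and SW780 cells (0.20). With the GC trend removed these values for the members were 0.56, 0.38 and 0.33. In RT4 and SW780 cells 60 members were past the limit on the same side, where 40.8% of all loci were, and 10 on opposite sides (8.58%). In RT4 and RT112 cells 35 were on the same side (24.1% of loci) and 23 on opposite sides. Of the latter, 12 were lower in RT4 and higher in RT112 cells, where 14.4% of loci were, and 11 the reverse (8.21%). In SW780 and RT112 cells 36 were on the same side (25.4%), 10 were lower in SW780 and higher in RT112 cells (9.78% of loci), and 7 the reverse (5.11%). Ratios here compare members and not samples, and the members of a line share the same 2 libraries.

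**Figure D4:**
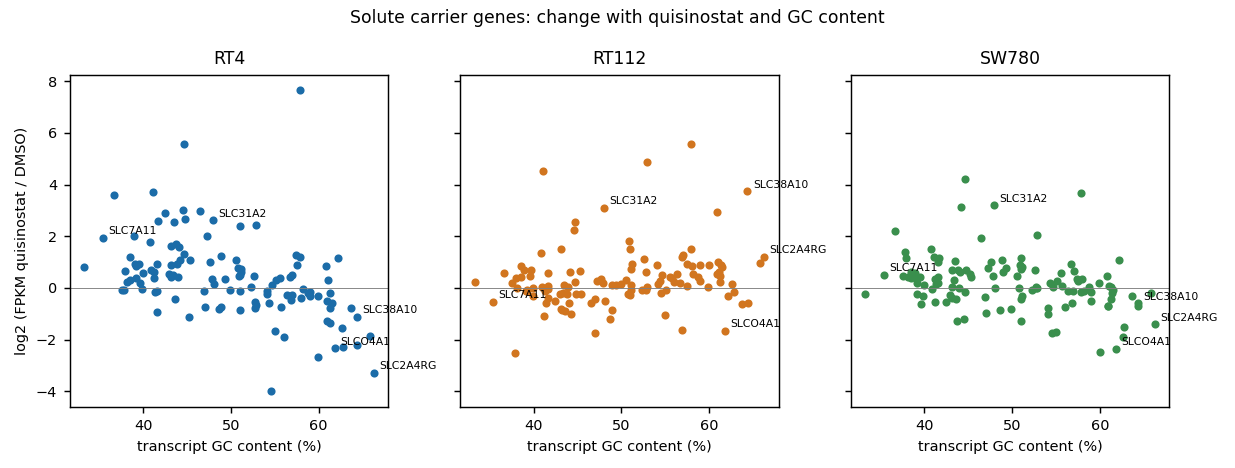
Log2 ratio of FPKM, quisinostat over DMSO, against transcript GC content in percent for the 117 members, 1 panel for each cell line. SLCO4A1 lies below 0 and SLC31A2 above 0 in each panel, while SLC2A4RG and SLC38A10, at over 64% GC, lie below 0 in RT4 and above 0 in RT112 cells.

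Before treatment the lines already differed in their carriers. By mean DMSO level the order began with SLC20A1, SLC1A5, SLC38A2, SLC39A7, SLC44A2, SLC35B2, SLC39A6 and SLC9A3R1, the last a PDZ scaffold named for an exchanger and not a carrier itself. SLC9A3R1 had ratios of -0.57, 0.82 and -0.062, and 0.36, 0.13 and 0.21 GC-corrected. The untreated levels of these 8 genes lay between 21.9 and 139 FPKM in every line. With 1 library per line, neighbours in this order cannot be told apart. SLC38A4 was 109 times as high in untreated RT4 cells as in the higher of the other lines, SLC12A7 3.41 times, SLC7A8 3.37 times and SLC22A23 3.32 times. In RT112 cells SLC2A12 was 8.46 times and SLC1A1 3.08 times as high. SW780 cells stood out for SLC7A11 (5.88 times), SLC40A1 (4.76 times), SLC16A1 (3.42 times) and SLC3A2 (2.03 times). Treated RT4 cells held 10.9 FPKM of SLC7A11, 39.8 of SLC40A1, 9.41 of SLC16A1 and 27.8 of SLC3A2.

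**Figure D5:**
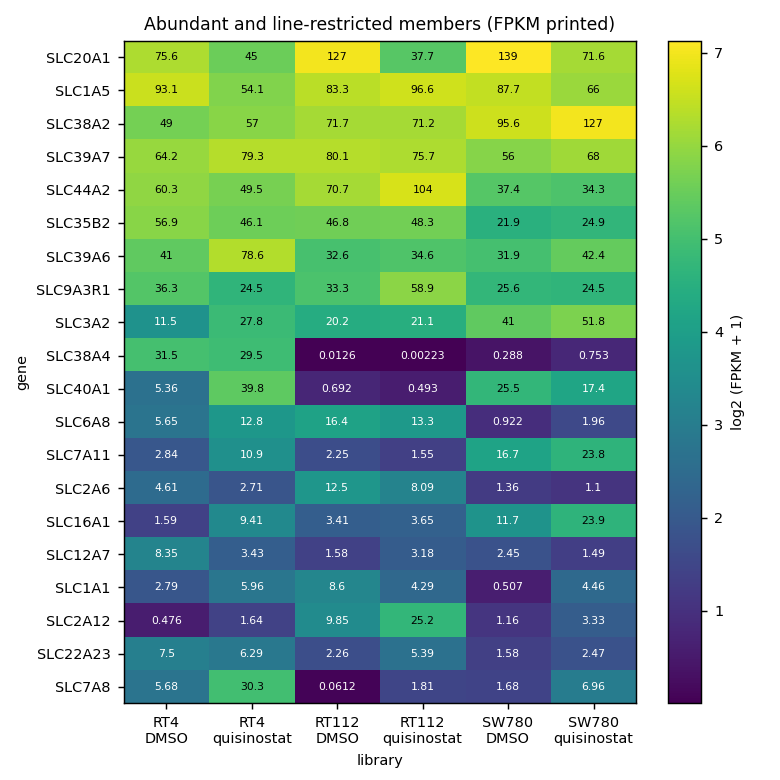
Level of the 8 most abundant members in DMSO and of the members highest in 1 untreated line, coloured by log2(FPKM + 1) with the FPKM printed, for each of the 6 libraries. SLC38A4 is at 31.5 and 29.5 FPKM in RT4 libraries and at most 0.753 in the others.

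Of the 130 members, 13 were at 0 in at least 1 library and got no ratio over all lines, and 10 of these reached 1 FPKM in another library. SLC27A6, a fatty acid carrier, was at 0.0172 FPKM in RT4 DMSO and 3.56 in RT4 quisinostat, and was listed at 0 in untreated RT112 and SW780 cells and at 0.3601 and 0.194 in treated ones. SLC10A3, SLC2A10 and SLC43A2 were at 4.85, 1.52 and 3.98 FPKM in untreated RT4 cells and listed at 0 in treated ones. SLC12A9 and SLC16A13 were listed at 0 in untreated RT112 cells and at 4.14 and 3.62 FPKM in treated ones. In the other lines SLC12A9 was lower, from 1.30 to 0.0205 FPKM in RT4 and from 0.746 to a listed 0 in SW780 cells. SLC16A13 went from 1.03 to 1.04 FPKM in RT4 and from 1.38 to 2.09 in SW780 cells. SLC7A2, a cationic amino acid carrier, was listed at 0 in both RT112 libraries, SLC26A11 in treated SW780 cells, and SLC16A4 exceeded 0.0839 FPKM only in SW780 cells. SLC15A2, SLC30A3 and SLC7A7 stayed under 1 FPKM in all 6 libraries. A further limit concerns 10 members that share a locus, and so their values, with another gene name. They are SLC29A3, SLC2A4RG, SLC35A3, SLC35B2, SLC35E1, SLC35E2B, SLC35F6, SLC39A1, SLC45A3 and SLC5A3.

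Carriers and related proteins that go by other symbols were listed separately, and 30 of 41 had ratios. In this list 17, 17 and 18 were higher and 5, 2 and 2 lower in RT4, RT112 and SW780 cells, with 8 higher in all lines and none lower in all. Over all loci, 40.3%, 36% and 32.8% were higher in these lines and 33.5%, 25.2% and 28.2% lower, with 11.4% higher in all. MFSD14A in this list shares its locus, and so its values, with the member SLC35A3. FLVCR2 shares a locus with IFT43 and TTLL5, and MFSD11 with METTL23. XPR1, a phosphate exporter, went from 8.65 to 16.2 FPKM in RT4, from 6.59 to 8.51 in RT112 and from 9.74 to 14.9 in SW780 cells, the opposite side from the importer SLC20A1. Of 15 ABC transporters with ratios, which pump substrates with ATP, 8, 9 and 6 were higher and 2, 4 and 5 lower. TAP2 among them shares its locus with HLA-DOB. Of 10 partner proteins, 5, 8 and 4 were higher and 2, 1 and 2 lower. ABCB1, the multidrug efflux pump, went from 0.0405 to 8.43 FPKM in RT4, from 0.171 to 0.703 in RT112 and from 0.775 to 2.62 in SW780 cells, so its ratios of 7.70, 2.04 and 1.76 were taken over untreated values under 1 FPKM. The 18 urothelial and epithelial markers with ratios were lower in 12, 3 and 13 cases and higher in 4, 9 and 4. None was past the limit on 1 side in all lines, and their part in the values of the members was not tested. KRT5 among these markers shares its locus with KRT6A.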

How the data were processed

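Stranded libraries of polyadenylated RNA from 6 samples were sequenced on an Illumina NovaSeq. The submitters' processing notes name CASAVA 1.8.2, Trimmomatic 0.36, HISAT2 2.2.1, SAMtools 1.15.1, StringTie 2.2.1 and GRCh38, and gene values came from Ballgown. The authors deposited FPKM, which include division by transcript length and mapped fragments, with no stated GC correction. Read counts and depth are unknown. Replicates are absent, so p-values from limma use the cell lines as replicates, paired because both libraries of a pair come from 1 line.

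One value per locus was used, and log2 ratios had no pseudocount. limma 3.58.1 (R 4.3.3) with trend and Benjamini-Hochberg adjustment ran on log2(FPKM + 1) of loci averaging 1 FPKM or more, and was tested on simulated data. The GC trend was a lowess curve (span 0.3, statsmodels 0.14.6) of ratio on the GC content of the longest GENCODE 29 transcript (coding where one exists, averaged over names of a shared locus), for 8407 of 9112 loci and all members. Positions are from GENCODE 29, on the build the notes name. Python 3.11.15 was used.

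The members, classes and lists were chosen with earlier results of these data known. Named genes were SLCO4A1, a fixed set, and by rule the members with the largest shared changes (12 per direction), the 10 highest and lowest ratios per line, opposite changes, the highest or most line-restricted DMSO levels, the extreme members of each class, the extreme genes of the other lists, and members listed at 0 somewhere. SLC4A2, SLC20A2, SLC35A1 and SLC9A9 were named with values after these were seen, and a few others by name only. Some genes that the rule names are not reported here. The limit of 0.3 is the one the study applied to decreases. Alternatives are in the closing section.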

Additional observations from a re-analysis of the deposited data

Results flagged for a closer look

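Of the members with a mean FPKM of at least 1, 7 had a log2 ratio above 1 in one cell line and below -1 in another. How many of all loci do so was not counted, so the 7 are not set against a share. With 1 library per line and treatment these differences between lines were not tested. The gap between the highest and the lowest ratio was 4.85 for SLC38A10, with ratios of -1.11, 3.73 and -0.59 in RT4, RT112 and SW780 cells, and 4.49 for SLC2A4RG, a transcription factor named for a carrier, with -3.29, 1.21 and -1.40. With the GC trend removed these were 0.11, 2.81 and -0.23 and -1.88, 0.14 and -0.98. The SLC2A4RG locus is shared with ZGPAT. The gap was 2.29 for SLC12A7, with ratios of -1.28, 1.01 and -0.71. Transcripts of these 3 genes are 64.3%, 66.3% and 61.0% GC, and the part of GC content in their ratios was not tested.

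The gap was 4.21 for SLC9A4 (3.01, 2.23 and -1.20), 4.14 for SLC1A1 (1.09, -1.004 and 3.14) and 2.96 for SLC1A3 (1.70, -0.23 and -1.26). Their transcripts are 44.6%, 44.2% and 43.8% GC, and the ratios with the GC trend removed were 2.70, 2.36 and -1.29, 0.77, -0.87 and 3.04 and 1.36, -0.09 and -1.36. For SLC38A4 the gap was 3.88 and joined values near 0, from 0.0126 to 0.00223 FPKM in RT112 and from 0.288 to 0.753 in SW780 cells.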

How the results depend on the processing

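Depth is unknown, so low FPKM values carry an unstated counting error. With loci of a mean FPKM of at least 5, 82 members remained. Of these, 4 were lower and 10 higher in all 3 lines (4.88% and 8.34% of loci). By line, 19 were lower in RT4 (32.2% of loci), 29 higher in RT112 (29.1%), and 20 lower and 30 higher in SW780 cells (25.9% and 28.2%). A threshold of 0.5 gave 5 lower and 12 higher in all lines (1.89% and 7.42% of loci). A threshold of 1 gave 2 and 6 in all lines, 14 lower and 29 higher in RT4, 8 and 18 in RT112, and 11 and 16 in SW780 cells. Leaving out a cell line gave 8 to 19 lower and 25 to 41 higher in those left, and the highest counts, 19 and 41, came without RT112 cells. Of all loci, 40.8% were past the limit on the same side in RT4 and SW780 cells, 25.4% in RT112 and SW780 and 24.1% in RT4 and RT112. With the GC correction 10 were lower and 19 higher in all lines, shares of loci being 7.73% and 11.4%. Of the 8 lower, 6 were still past the limit, without SLC2A6 and SLC37A2, and of the 21 higher 17 were, without SLC30A1, SLC33A1, SLC35A1 and SLC46A1. A pseudocount of 1 kept 6 and 14, without SLC2A6 and SLC44A4 among the lower. Those lost among the higher were SLC2A13, SLC2A9, SLC33A1, SLC35F6, SLC39A14, SLC46A1 and SLC9A9. The GC correction turned the RT4 ratios of SLC2A6, SLC35B2 and SLC9A3R1 to 0.39, 0.45 and 0.36. Centring and rescaling to the same sum reversed none of the named ratios. limma called 0 members at an adjusted p of 0.05 in each of its settings. At an unadjusted p under 0.05 it gave 16 members higher and 5 lower, beside 913 and 392 of 9430 loci. With no replicate block (cell line not in the fit) it gave 5 and 1 (314 and 106 loci). With the GC correction there were 22 and 11 (1043 and 940 of 8646 loci), and with quantile normalization 8 and 10 (638 and 570 loci). Without RT112 cells it gave 22 and 11 (1173 and 889 loci), without RT4 cells 5 and 4 (522 and 240), and without SW780 cells 6 and 2 (390 and 74). The smallest adjusted p among members ranged from 0.0774 to 0.973. The cause of these shifts was not tested.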
